A study of Mus musculus with 6 samples.

Results

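The genes described here carry glucose into the cell and break it down to pyruvate and lactate, with the kinase that switches off pyruvate dehydrogenase. They were chosen by symbol, with no rule on measured values, though with earlier results of these data known. The symbols were the glucose transporter genes Slc2a1 and Slc2a3, the glycolytic enzyme genes Hk1, Hk2, Pfkp, Aldoa, Gapdh, Pkm and Ldha, and the pyruvate dehydrogenase kinase gene Pdk1. Of these 10 symbols 9 matched a row among the 8520 genes of the table by NCBI gene number, and Hk2 is not analysed here. RNA was measured in natural killer (NK) cells from spleens of 20 C57BL/6Ncr mice aged 6 to 8 weeks, with no treatment in either group. Both groups were enriched on a magnetic column and sorted as CD3-negative and NK1.1-positive. The Ly49G+ group (3 libraries) was positive for Ly49G by antibody 4D11 and negative for Ly49C/I by antibody 5E6. The Ly49I+ group (3 libraries) had the reverse pattern, and 5E6 binds Ly49C as well as Ly49I, so this group is defined by either receptor. The labels call the 3 libraries of a group biological replicates without saying how many mice fed each. The p-values therefore cover only variation among these 6 libraries, part of which may be technical.

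Glucose enters lymphocytes through facilitative transporters of the GLUT family and is trapped by hexokinase as glucose 6-phosphate. Phosphofructokinase commits the sugar to glycolysis, aldolase splits it, and pyruvate kinase releases pyruvate, which lactate dehydrogenase turns to lactate or pyruvate dehydrogenase turns to acetyl-CoA for the mitochondrial cycle. Pyruvate dehydrogenase kinases phosphorylate and switch off pyruvate dehydrogenase. NK cells at rest use little glucose, and cytokine-activated NK cells are known to raise glucose uptake and glycolysis under the control of the kinase mTOR and the transcription factor MYC. Glycolytic genes are also textbook targets of the hypoxia-inducible factor HIF.

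Library totals ran from 33599679 to 40892154 reads. The sorted receptors matched the labels: Klra7, which encodes Ly49G, was 86.8-fold higher in Ly49G+ libraries, and Klra9, which encodes Ly49I, was 13.6-fold higher in Ly49I+ libraries. All 12 measured NK markers of 13 listed were present in every library, with summed levels of 20850 to 21190 CPM (counts per 1000000 reads of the library) in Ly49G+ and 20830 to 21450 in Ly49I+, led by Ptprc and Gzma. Of the 12 NK markers 1 was called toward Ly49G+, Eomes (adjusted p = 0.00893 by limma). Another 2 were called toward Ly49I+, Prf1 (0.0253) and Tbx21 (0.0442). Over all genes 1.82% were called toward Ly49G+ and 1.77% toward Ly49I+. Some markers of other cells also differed between the groups. Of 15 T cell markers 9 had a row, and 5 of these were higher in Ly49G+ libraries. The T cell list summed to 646 to 714 CPM in Ly49G+ and 538 to 589.5 in Ly49I+, with Cd247, which NK cells also express, and Trbc1 the most abundant. Of 25 myeloid and dendritic cell markers 10 had a row, and 7 of these were higher in Ly49I+ libraries. The myeloid list summed to 1076 to 1192 CPM in Ly49G+ and to 1161, 2062 and 1208 in Ly49I+ replicates 1, 2 and 3, with Itgax, which NK cells also express, as its most abundant gene. Itgax itself was not among the 7, at 1037 to 1120 CPM in Ly49G+ and 827, 931 and 946 CPM in Ly49I+ (adjusted p = 0.0985 by limma, 0.0185 with the replicate number as a block). In Ly49I+ replicate 2 the list also held Lyz2 at 352 CPM, Ace at 201 CPM and Cybb at 163 CPM. Of 12 B cell markers 4 had a row, and Cd22 was called, 1.91-fold higher in Ly49G+ (adjusted p = 0.0131), with 2 of the 4 called with the block. No measured marker was at 0 in any library. Every gene of the table reached 10 CPM in at least 2 libraries, so a marker can have a row through a single group. Csf1r, Adgre4, Ace, Treml4, Cybb, Sirpa and Cst3 were under 10 CPM in every Ly49G+ library, and Cd3d, Cd3e and Trac in every Ly49I+ library. The direction of these markers was favoured by that limit, so the counts of 7 of 10 and 5 of 9 are descriptions only. In bulk RNA, fewer cells of a type and less RNA per cell cannot be told apart.

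Promoter sequences are shown for Pdk1, the gene of the set with the largest difference between the populations, and for Ldha, a glycolytic gene whose difference did not pass the test, because both are known HIF targets. RefSeq promoter windows (GRCm38.p6, 250 bases before to 50 after the start) were held for 9 of the 10 symbols. Capitals mark ACGTG or GCGTG on either strand, the core letters bound by HIF. Each run reads 5′ to 3′ on the plus strand and stops 10 bases short of an annotated start. That start is at 71873224 for Pdk1 and 46845804 for Ldha. The Pdk1 run lies at chr2:71872974-71873213 and the Ldha run at chr7:46845554-46845793. Each gene has a further annotated start, whose window is not printed.

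Pdk1: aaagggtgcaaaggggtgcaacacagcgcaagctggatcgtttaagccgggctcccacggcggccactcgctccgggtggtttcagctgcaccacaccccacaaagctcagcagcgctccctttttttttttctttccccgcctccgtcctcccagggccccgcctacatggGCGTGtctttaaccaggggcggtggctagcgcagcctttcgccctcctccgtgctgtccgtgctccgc

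Ldha: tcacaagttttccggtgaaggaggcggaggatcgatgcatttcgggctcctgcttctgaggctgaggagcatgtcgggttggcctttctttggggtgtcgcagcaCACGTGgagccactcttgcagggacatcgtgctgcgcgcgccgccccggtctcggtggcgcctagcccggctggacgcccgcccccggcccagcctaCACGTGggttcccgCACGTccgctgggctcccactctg

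Upstream of Pdk1 one GCGTG match began 78 bases before the start, and a further one began 2 bases before it, past the end of the printed run. No ACGTG lay in either Pdk1 window, and the unprinted Pdk1 window held no GCGTG. Upstream of Ldha the E-box CACGTG, the palindrome bound by MYC and its partners, began 145 and 48 bases before the start, and each E-box holds ACGTG on both strands. A single ACGTG match began 34 bases before the start. Over 32851 windows of the same length, ACGTG on either strand was found in 19.6%, GCGTG in 32.4% and CACGTG in 7.15%. Of the other symbols with a window, Slc2a1, Hk2, Gapdh, Hk1, Aldoa and Pkm held ACGTG in at least 1 of their annotated starts. Pfkp held GCGTG at 4 positions, and Slc2a1, Gapdh and Hk1 also held GCGTG in at least 1 start. Both Ldha windows held GCGTG too, in the printed case only after the start, past the printed run. These letter matches are descriptions of the windows and show no binding.

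Pdk1 RNA was higher in Ly49G+ cells and Slc2a3 RNA was higher in Ly49I+ cells, and the other 7 measured genes did not pass the test. Over all 8520 genes 3.59% were called at an adjusted p of 0.05 (limma on log2 CPM, Benjamini-Hochberg adjustment), 1.82% higher in Ly49G+ and 1.77% higher in Ly49I+. Of the 9 genes of the set 1 was called in each direction, and their median log2 difference of Ly49G+ minus Ly49I+ was -0.05, against -0.02 over all genes. The 2 called genes were also those whose groups did not overlap, where 25.8% of all genes had groups that did not overlap. Without Ly49I+ replicate 2, the library with the most Csf1r RNA, 1 of the 9 was called toward Ly49G+ and 0 toward Ly49I+, against 1.29% and 1.14% of all genes (2.43% in either direction).

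**Figure D1:**
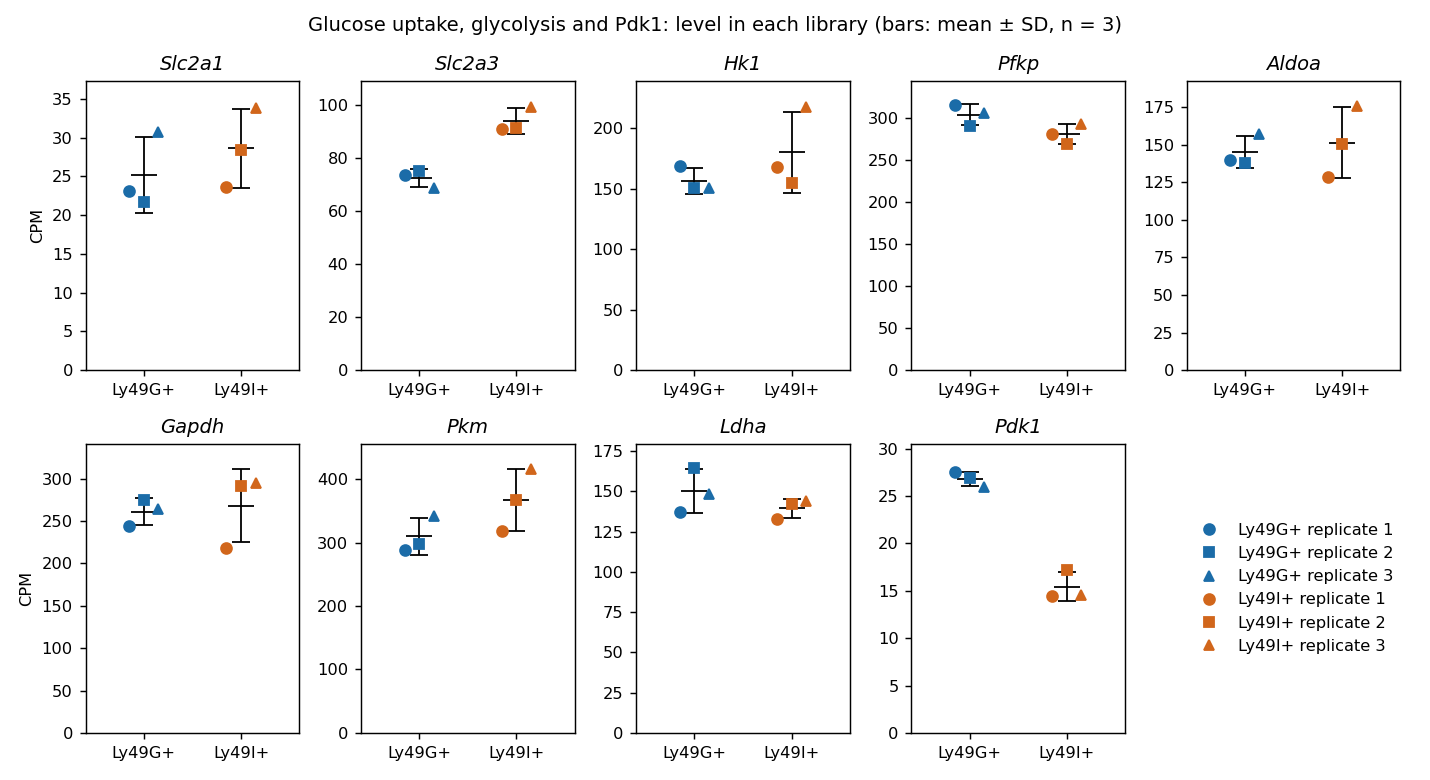
Level of each measured gene in CPM (vertical axes from 0) in the 6 libraries, with points for libraries and bars for the group mean ± SD (n = 3). For Pdk1 the Ly49G+ points lie between 26.0 and 27.5 CPM and the Ly49I+ points between 14.5 and 17.2, for Slc2a3 the Ly49I+ points lie above the Ly49G+ points, and for the other genes the groups overlap.

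Pdk1 (NCBI gene 228026, GRCm38.p6 chromosome 2, 71873215 to 71903858) encodes a kinase that inactivates the pyruvate dehydrogenase complex. Its level was 27.5, 26.9 and 26.0 CPM in Ly49G+ replicates 1, 2 and 3 and 14.5, 17.2 and 14.6 CPM in Ly49I+ replicates 1, 2 and 3. The Ly49G+ libraries lay close together and all above the Ly49I+ libraries, of which replicate 2 was the highest. The means were 26.8 ± 0.771 and 15.4 ± 1.55 CPM (SD, n = 3 each), a 1.74-fold difference with a 95% interval of 1.46 to 2.08. The log2 difference was 0.80 ± 0.11 (SE, adjusted p = 0.00355 by limma), which placed Pdk1 at rank 70 of 8520 genes by p. Between same-numbered libraries Ly49G+ was 1.90-, 1.56- and 1.78-fold higher. Pdk1 passed under all 14 alternatives run, with adjusted p from 0.000593 to 0.0351. It was counted from 501 to 972 reads a library, so counting error at the lowest count is 4.47% of the level.

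The other kinases of pyruvate dehydrogenase did not pass the test. Pdk3 (named after its values were seen) stood at 28.1, 28.8 and 26.3 CPM in Ly49G+ and 24.9, 26.2 and 21.6 CPM in Ly49I+ libraries (log2 difference 0.20 ± 0.11, adjusted p = 0.324 by limma). Pdk2 had the opposite sign, at 15.1, 16.0 and 19.8 against 20.4, 25.2 and 19.4 CPM (-0.35 ± 0.15, adjusted p = 0.222). As a share of the 3 kinases per exon length, Pdk1 made up 20.0% ± 0.938 in Ly49G+ and 12.4% ± 0.582 in Ly49I+ libraries (SD, n = 3), and without division by length 37.5% and 25.2%. Every Ly49G+ library had a higher Pdk1 share than every Ly49I+ library (two-sided exact permutation p = 0.1, the smallest that 3 against 3 allows, and 0.133 adjusted over the 4 shares computed). This share was added after the values were seen.

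Of the 9 measured T cell markers 5 were called toward Ly49G+, as Pdk1 was, where 1.82% of all genes were. Another 2 had estimates toward Ly49I+, Cd247 (-0.09) and Lat (-0.12). Cd3d, Cd3e and Trac were under 10 CPM in every Ly49I+ library and had a row only through Ly49G+ libraries. The B cell marker Cd22 was also called toward Ly49G+. Cd3e is a chain of the T cell receptor complex and was picked here after its values were seen. It had 9.27, 18.5 and 11.5 CPM in the 3 Ly49G+ libraries, where the SD of Pdk1 was 2.87% of its mean. For the 9 measured T cell markers that SD ran from 2.05% (Cd247) to 36.9% (Cd3e), with 6.5% for Cd28, which was called. In the Ly49I+ libraries Cd3e had 0.592, 1.06 and 1.22 CPM. Of 22 proliferation genes 17 had a row, with 4 called toward Ly49G+, 0 toward Ly49I+ and 3 estimates toward Ly49I+ (Mcm5, Mcm7 and Stmn1), and the list summed to 1459 to 1569 CPM in Ly49G+ and 1274 to 1285 in Ly49I+. The part of T cell RNA, B cell RNA or dividing cells in the Pdk1 difference was not tested.

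Slc2a3 (gene 20527, chromosome 6, 122727809 to 122802363) encodes GLUT3, a high-affinity glucose transporter, and Slc2a1 (gene 20525, chromosome 4, 119108745 to 119137330) encodes GLUT1. Slc2a3 had 73.6, 75.0 and 68.7 CPM in the Ly49G+ libraries (replicates 1 to 3) against 91.1, 91.2 and 99.4 CPM in the Ly49I+ libraries. Each Ly49I+ library lay above each Ly49G+ library. The means of 72.5 ± 3.30 and 93.9 ± 4.79 CPM (SD, n = 3) differed 1.30-fold, with a 95% interval of 1.15 to 1.46 (log2 difference -0.37 ± 0.08, adjusted p = 0.0254 by limma). The call was lost without the intensity trend of the test (adjusted p = 0.0564), and without Ly49G+ replicate 1 (0.0895), 2 (0.102) or 3 (0.111) and Ly49I+ replicate 2 (0.0664) or 3 (0.0509), with log2 differences between -0.40 and -0.33 throughout. Of the 10 measured myeloid and dendritic cell markers 8 were highest in Ly49I+ replicate 2, and Cst3 (Ly49I+ replicate 3) and Itgax (Ly49G+ replicate 3) were not. Csf1r, Adgre4, Ace, Treml4, Cybb, Sirpa and Cst3 had a row only through Ly49I+ libraries. Among the 8 the growth factor receptor gene Csf1r, picked after its values were seen, was at 41.3, 138 and 31.7 CPM in Ly49I+ replicates 1, 2 and 3, where Slc2a3 was nearly level between replicates 1 and 2. The part of monocyte RNA in the Slc2a3 difference was not tested.

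Slc2a1 was lower than Slc2a3 in every library, at 23.1, 21.7 and 30.8 CPM in Ly49G+ and 23.7, 28.4 and 33.9 CPM in Ly49I+ libraries. The groups overlapped, and the log2 difference of -0.19 ± 0.16 (adjusted p = 0.532 by limma) has a 95% interval of -0.54 to 0.17, so a difference as large as that of Slc2a3 lies inside it. Per exon length Slc2a3 made up 70.4% ± 4.93 of the RNA of this pair in Ly49G+ and 73.1% ± 2.68 in Ly49I+ libraries (SD, n = 3, two-sided exact permutation p = 0.5). The mix of the transporters therefore did not differ by more than the spread between libraries, and its direction turned without Ly49G+ replicate 3.

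The enzymes at the head of the pathway did not pass the test. Hk1 (gene 15275, chromosome 10, 62268855 to 62379920) encodes hexokinase 1, which starts glucose breakdown. It stood at 169, 150 and 150 CPM in Ly49G+ and 168, 155 and 218 CPM in Ly49I+ libraries, so that 1 library, Ly49I+ replicate 3, lay well above the other 5. Its log2 difference was -0.19 ± 0.12 (adjusted p = 0.387 by limma), and -0.04 without that library. Pfkp (gene 56421, chromosome 13, 6579874 to 6649060), the platelet-type phosphofructokinase, stood at 290 to 315 CPM in Ly49G+ and 269 to 293 CPM in Ly49I+ libraries (0.11 ± 0.07, adjusted p = 0.385). Like Pdk1 and Ldha, Pfkp was higher in Ly49G+ in 3 of 3 same-numbered pairs, by 1.04- to 1.12-fold for Pfkp. Against the liver-type gene Pfkl, Pfkp made up 88.2% ± 0.410 of the pair per exon length in Ly49G+ and 85.6% ± 1.78 in Ly49I+ libraries, without overlap (SD, n = 3, two-sided exact permutation p = 0.1, 0.133 adjusted over the 4 shares).

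Further down the pathway the differences were small against the spread. Aldoa (gene 11674, chromosome 7, 126795234 to 126800994), the muscle-type aldolase, ranged from 138 to 157 CPM in Ly49G+ and 128 to 176 CPM in Ly49I+ libraries (log2 difference -0.05 ± 0.11, adjusted p = 0.810 by limma). Gapdh (gene 14433, chromosome 6, 125161852 to 125166467), which oxidises glyceraldehyde 3-phosphate, ranged from 244 to 275 CPM and from 218 to 295 CPM (-0.03 ± 0.11, adjusted p = 0.917). The sign of both turned when single libraries were left out. Gapdh levels are uncertain, because 75.8% of the 100-base windows of its transcripts occur letter for letter in 15 other annotated genes, and the sources used here do not say how shared reads were counted. Among the other genes of the set the largest share of such windows found was 8.5%, in Pfkp, shared with 1 other gene. The search kept only matches identical over their whole length, so all these shares may be too low.

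Pkm (gene 18746, chromosome 9, 59656576 to 59679372), the pyruvate kinase of most tissues, came nearest to a call among the rest. It stood at 289, 298 and 343 CPM in Ly49G+ and 319, 367 and 415 CPM in Ly49I+ libraries, with overlapping groups. In each same-numbered pair Ly49I+ was higher, by 1.104-, 1.232- and 1.212-fold, though the numbers rest on an uncertain pairing. The pairs were as one-sided for Slc2a1 and Slc2a3 (0 of 3 higher in Ly49G+) and for Pfkp, Ldha and Pdk1 (3 of 3). The log2 difference of -0.24 ± 0.10 gave an adjusted p of 0.239 by limma, 0.0299 with the replicate number as a block, and 0.0498 without Ly49I+ replicate 1. With the block 3 of the 9 genes were called, Pdk1 higher in Ly49G+ and Slc2a3 and Pkm higher in Ly49I+, where the background share was 11.7%, made up of 5.69% toward Ly49G+ and 5.96% toward Ly49I+. Ldha (gene 16828, chromosome 7, 46842274 to 46855627), which makes lactate from pyruvate, ranged from 137 to 165 CPM in Ly49G+ and 133 to 144 CPM in Ly49I+ libraries (0.10 ± 0.08, adjusted p = 0.508).

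**Figure D2:**
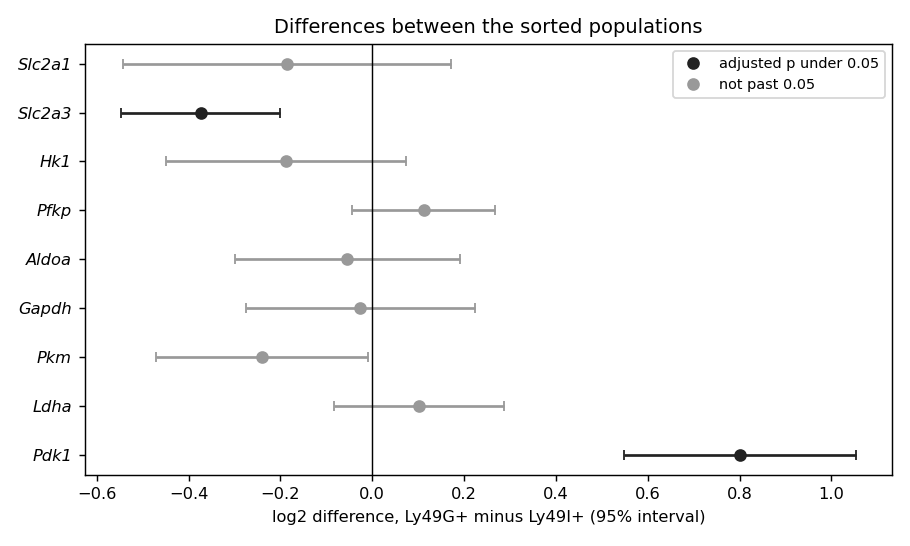
Log2 difference of Ly49G+ minus Ly49I+ (horizontal axis) with its 95% interval for each measured gene, from the limma fit on 3 libraries per group. Pdk1 at 0.80 and Slc2a3 at -0.37 are the 2 genes past an adjusted p of 0.05, and the remaining 7 lie between -0.24 and 0.11.

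For the 7 genes that did not pass, the 95% intervals bound the size of a difference. The unadjusted interval of Pkm lay just below 0, and the other 6 held 0. The interval reached furthest for Slc2a1, down to -0.54, and Pkm, down to -0.47, while for Pfkp it ran from -0.04 to 0.27 and for Ldha from -0.08 to 0.29. No interval of these 7 genes reached 0.80, the difference of Pdk1.

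Several of these genes were highest in 1 library. Ly49I+ replicate 3 was the highest of the 6 libraries for 6 of 9 genes, and of the Ly49I+ libraries for 8 of 9, Pdk1 being the exception. Over all genes 27.8% had their highest value of the 6 in that library, and 37.2% their highest value of the Ly49I+ group. The 9 genes together took 1417, 1439 and 1495 CPM in Ly49G+ and 1376, 1510 and 1688 CPM in Ly49I+ replicates 1, 2 and 3, so the summed level overlapped between groups. The spread within Ly49I+ (SD over mean) was widest for Hk1 at 18.5%, Slc2a1 at 17.8%, Gapdh at 16.1% and Aldoa at 15.6%. In Ly49G+ it was widest for Slc2a1 at 19.4% and under 10% for the remaining 8 genes.

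Divided by exon length, the levels spanned a wide range, with the enzymes above the transporters and the kinase. Gapdh led at 177 CPM per kilobase (mean of 6 libraries, range 146 to 197), followed by Pkm at 130 (111 to 160), Aldoa at 81.2 (70.4 to 96.3), Ldha at 76.4 (70.1 to 86.9) and Pfkp at 68.0 (62.5 to 73.2). Hk1 followed at 34.7 (31.0 to 44.8), Slc2a3 at 21.0 (17.4 to 25.1), Slc2a1 at 8.26 (6.65 to 10.4) and Pdk1 at 4.07 (2.79 to 5.31). The ranges of Gapdh and Pkm overlapped, as did those of Aldoa and Ldha and of Ldha and Pfkp, so the order within these neighbours is not settled. The ranges did not overlap between Pkm and Aldoa, or between neighbours from Pfkp on through Hk1, Slc2a3 and Slc2a1 to Pdk1.

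**Figure D3:**
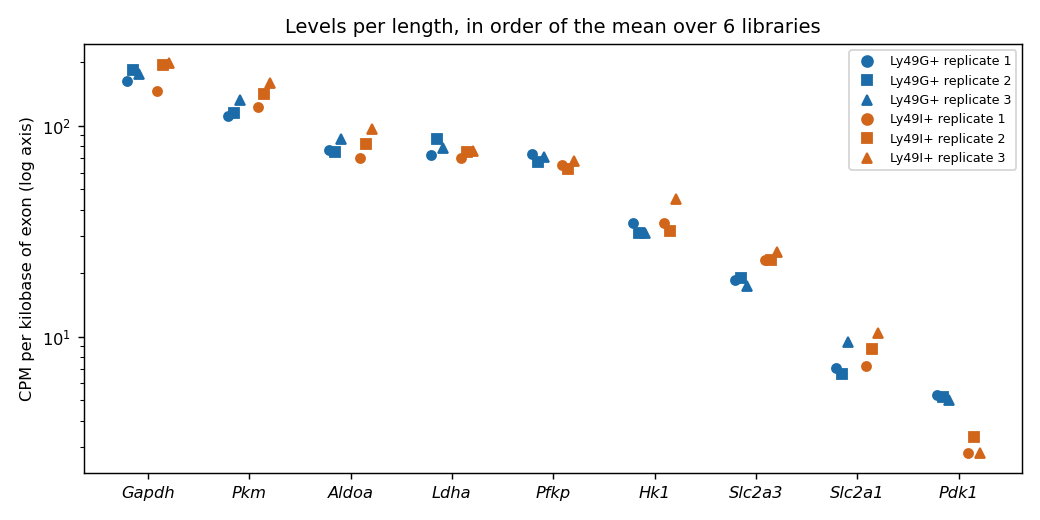
Level per exon length (vertical log axis, CPM per kilobase) of each gene in the 6 libraries, ordered by the mean. Levels fall from 177 for Gapdh to 4.07 for Pdk1, and the populations separate for Slc2a3 and Pdk1.

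Genes with the most similar profile over the 6 libraries were taken for the 2 called genes, by Pearson r of log2 CPM as a description with no test. For Pdk1 these were Slamf6, a receptor of the SLAM family (r = 0.995), Frmd4b (0.995) and Manea (0.989), all higher in Ly49G+ with log2 differences of 1.52, 0.50 and 0.34. For Slc2a3 they were Sdc4, which encodes the proteoglycan syndecan 4 (r = 0.997), Id2, which encodes an inhibitor of DNA binding that NK cells need for their development (0.993), and Kcnj8, a potassium channel gene (0.990). All 3 were higher in Ly49I+, with log2 differences of -0.75, -0.42 and -2.02. With 6 libraries in 2 groups, any gene that separates the groups in the same way scores high on this measure.

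Around these genes, 92 of 141 other listed genes of glucose metabolism and its control had a row, and 5 of them (5.43%) were called, against 3.59% of all genes. Among the 5, Eno3 and Pygl were under 10 CPM in every Ly49G+ library and had a row only through Ly49I+ libraries. That limit favoured their direction. At a minimum mean log2 of 4 neither was tested, and 1 of the surrounding genes was called. The median log2 difference of the 92 genes was -0.06. With the replicate block 11 of the 92 were called, where 11.7% of all genes were.

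**Figure D4:**
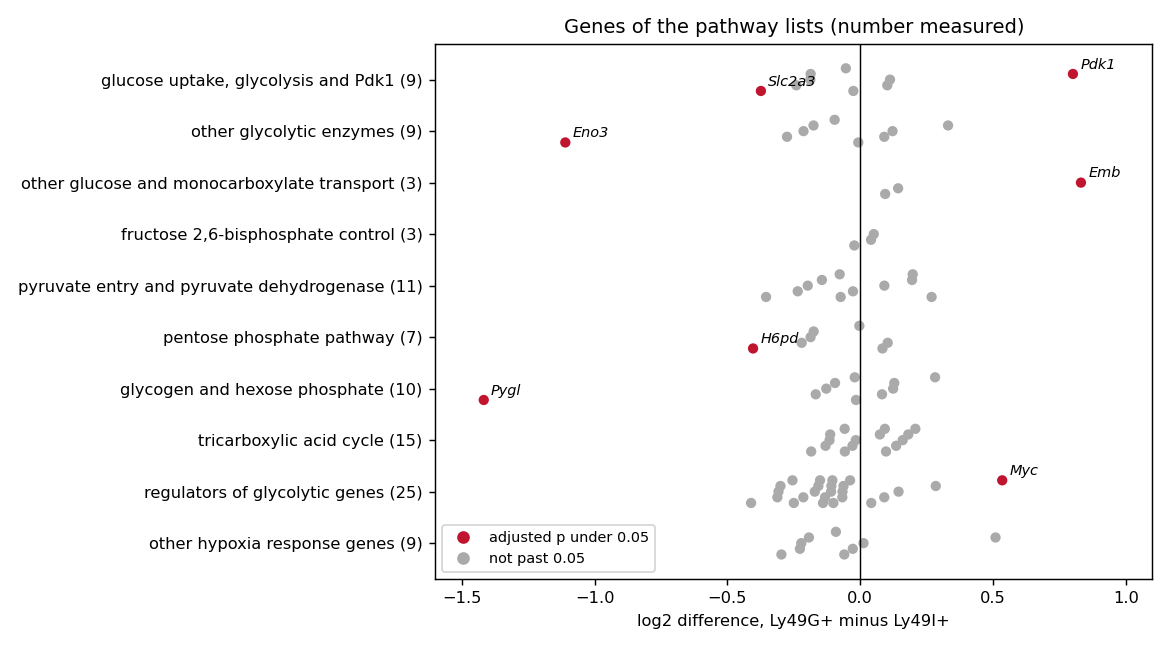
Log2 difference of Ly49G+ minus Ly49I+ (horizontal axis) for every measured gene of the set and of 9 surrounding lists, with the number measured in brackets and genes past an adjusted p of 0.05 in red. Emb and Myc lie with Pdk1 on the Ly49G+ side, and Eno3, Pygl and H6pd lie with Slc2a3 on the Ly49I+ side. Eno3 and Pygl have a row only through Ly49I+ libraries.

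Of the other glycolytic enzymes 9 of 23 had a row, 0 were higher in Ly49G+, 1 was higher in Ly49I+ and 8 did not pass (median log2 difference -0.10). Eno3, the muscle-type enolase, stood at 5.88, 6.30 and 5.03 CPM in Ly49G+ and 10.4, 16.8 and 10.7 CPM in Ly49I+ libraries (-1.11 ± 0.22, adjusted p = 0.0207 by limma). It was highest in the library where Csf1r was highest, and without Ly49I+ replicate 2 its adjusted p was 0.0793 and its log2 difference -0.89. Its call was also lost without Ly49G+ replicate 1 (0.0659), 2 (0.0761) or 3 (0.0797). Eno3 was under 10 CPM in every Ly49G+ library, so it has a row only through Ly49I+ libraries. The ubiquitous enolase Eno1, named here after its values were seen, differed in the same direction at 158 to 175 against 185 to 224 CPM (-0.28 ± 0.09, adjusted p = 0.113, and 0.0177 with the block). The ADP-dependent glucokinase gene Adpgk stood at 27.4 to 30.6 CPM in Ly49G+ and 21.3 to 24.9 CPM in Ly49I+ libraries (0.33 ± 0.10, adjusted p = 0.118).

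Lactate and pyruvate cross the membrane through monocarboxylate transporters, which need a chaperone, basigin or embigin. Of 16 transport genes outside the set 3 had a row, 1 was higher in Ly49G+ and 2 did not pass. Emb, which encodes embigin, stood at 112, 136 and 114 CPM in Ly49G+ and 64.2, 76.2 and 63.1 CPM in Ly49I+ libraries. The groups did not overlap, and the difference of 1.78-fold (log2 difference 0.83 ± 0.10, adjusted p = 0.00208 by limma) was about as large as that of Pdk1. Emb was highest in Ly49G+ replicate 2, as Cd3e was, and the part of T cell RNA in its difference was not tested. The partner chaperone gene Bsg ranged from 90.9 to 98.9 CPM and from 81.4 to 101 CPM (0.09 ± 0.09, adjusted p = 0.587). The transporter gene Slc16a1 ranged from 9.84 to 10.98 and from 9.16 to 9.73 CPM without overlap (0.14 ± 0.15, adjusted p = 0.617). Slc16a1 was under 10 CPM in every Ly49I+ library, so it has a row only through Ly49G+ libraries. That limit favoured its direction, and 25.8% of all genes had groups that did not overlap. Per exon length Emb made up 42.2% ± 3.54 of the chaperone pair in Ly49G+ and 30.5% ± 3.70 in Ly49I+ libraries, without overlap (SD, n = 3, two-sided exact permutation p = 0.1, a share added after the values were seen).

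The steps on either side of Pdk1 showed no call in the limma test. Of 14 genes of pyruvate entry and the pyruvate dehydrogenase complex 11 had a row and 0 were called, with 3 at an unadjusted p under 0.05 and 0 called with voom weights. The subunit gene Pdhb ranged from 90.6 to 103 CPM in Ly49G+ and 73.8 to 87.2 CPM in Ly49I+ libraries (0.27 ± 0.09, adjusted p = 0.132, and 0.0287 with the block, the 1 call of this list there). Of 16 genes of the tricarboxylic acid cycle 15 had a row and 0 were called, with 1 at an unadjusted p under 0.05 and 0 with voom weights. Ogdh, a subunit gene of oxoglutarate dehydrogenase, differed by -0.18 ± 0.07 (adjusted p = 0.207), and Sucla2, a subunit gene of succinyl-CoA ligase, by 0.21 ± 0.10 (adjusted p = 0.271). The 3 measured genes of 5 that set fructose 2,6-bisphosphate, the activator of phosphofructokinase, gave 0 calls, 0 at an unadjusted p under 0.05 and 0 with voom weights. Among them Pfkfb2 differed by 0.04 ± 0.10 and Tigar by 0.05 ± 0.14.

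In the lists for the pentose phosphate pathway and for glycogen 1 gene each was called toward Ly49I+, where 1.77% of all genes were. Single calls in lists this small show no pattern of side branches. In the pentose phosphate pathway 1 of 7 measured genes was called, H6pd, which encodes the enzyme that makes NADPH in the endoplasmic reticulum. H6pd stood at 65.7, 73.1 and 71.5 CPM in Ly49G+ and 84.9, 88.6 and 106 CPM in Ly49I+ libraries (-0.40 ± 0.10, adjusted p = 0.0482 by limma). That call was lost without Ly49I+ replicate 2 (0.0873) or 3 (0.0819), without Ly49G+ replicate 1 (0.183), 2 (0.158) or 3 (0.118), without the intensity trend (0.0943), with voom weights (0.0556), with quantile normalization (0.0539) and at a minimum mean log2 of 4 (0.0528). The transketolase gene Tkt stood at 90.4 to 92.5 CPM in Ly49G+ and at 93.7, 96.3 and 135 CPM in Ly49I+ libraries (-0.22 ± 0.13, adjusted p = 0.343), with replicate 3 apart as for Hk1. In the glycogen list 1 of 10 measured genes was called, the liver-type glycogen phosphorylase gene Pygl at 6.12, 4.61 and 7.30 against 13.9, 20.4 and 13.9 CPM (-1.42 ± 0.22, adjusted p = 0.00686). Pygl was highest in Ly49I+ replicate 2, the library with the most Csf1r RNA, and passed without it (adjusted p = 0.0282). Pygl was under 10 CPM in every Ly49G+ library, so it has a row only through Ly49I+ libraries. The part of monocyte RNA in the Pygl, Eno3 and H6pd differences was not tested. The branching enzyme gene Gbe1 had the other sign (0.28 ± 0.08, adjusted p = 0.0904, 0.0453 with the block and 0.0479 without Ly49I+ replicate 1).

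Among regulators of glycolytic genes 1 of 25 measured genes was called, against 3.59% of all genes, and 5 of the 25 estimates were higher in Ly49G+, against 46.5% of all genes. With the block 2 were called toward Ly49G+ and 1 toward Ly49I+, the last being Tsc2, which encodes a brake on mTOR (-0.25 ± 0.08, adjusted p = 0.131 by limma and 0.0487 with the block), named after its values were seen. Myc stood at 78.8, 70.7 and 95.2 CPM in Ly49G+ and 48.2, 58.7 and 61.7 CPM in Ly49I+ libraries, without overlap (0.53 ± 0.13, adjusted p = 0.0442 by limma). Its adjusted p was 0.0528 with voom weights, 0.0506 at a minimum mean log2 of 4, 0.0928 without the intensity trend, 0.0793 without Ly49I+ replicate 2, and 0.130, 0.0757 and 0.136 without Ly49G+ replicates 1, 2 and 3. Hif1a, named here after its values were seen because it encodes the oxygen-regulated subunit of HIF, stood at 180, 174 and 182 CPM in Ly49G+ and 153, 151 and 135 CPM in Ly49I+ libraries (0.28 ± 0.07, adjusted p = 0.0675, and 0.0202 with the block). Mxd4, which encodes a MAX partner that opposes MYC, differed by -0.41 ± 0.17 (adjusted p = 0.213). Of the other hypoxia response genes 9 of 16 had a row and 0 were called, with 3 at an unadjusted p under 0.05 and 0 with voom weights. Ndrg1 came nearest, at 30.2, 27.4 and 34.2 against 20.5, 24.3 and 19.6 CPM (0.51 ± 0.12, adjusted p = 0.0508, 0.0176 with the block and 0.0458 without Ly49I+ replicate 2), while Mxi1, which encodes another MAX partner, had the other sign (-0.30 ± 0.11, adjusted p = 0.175).

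**Figure D5:**
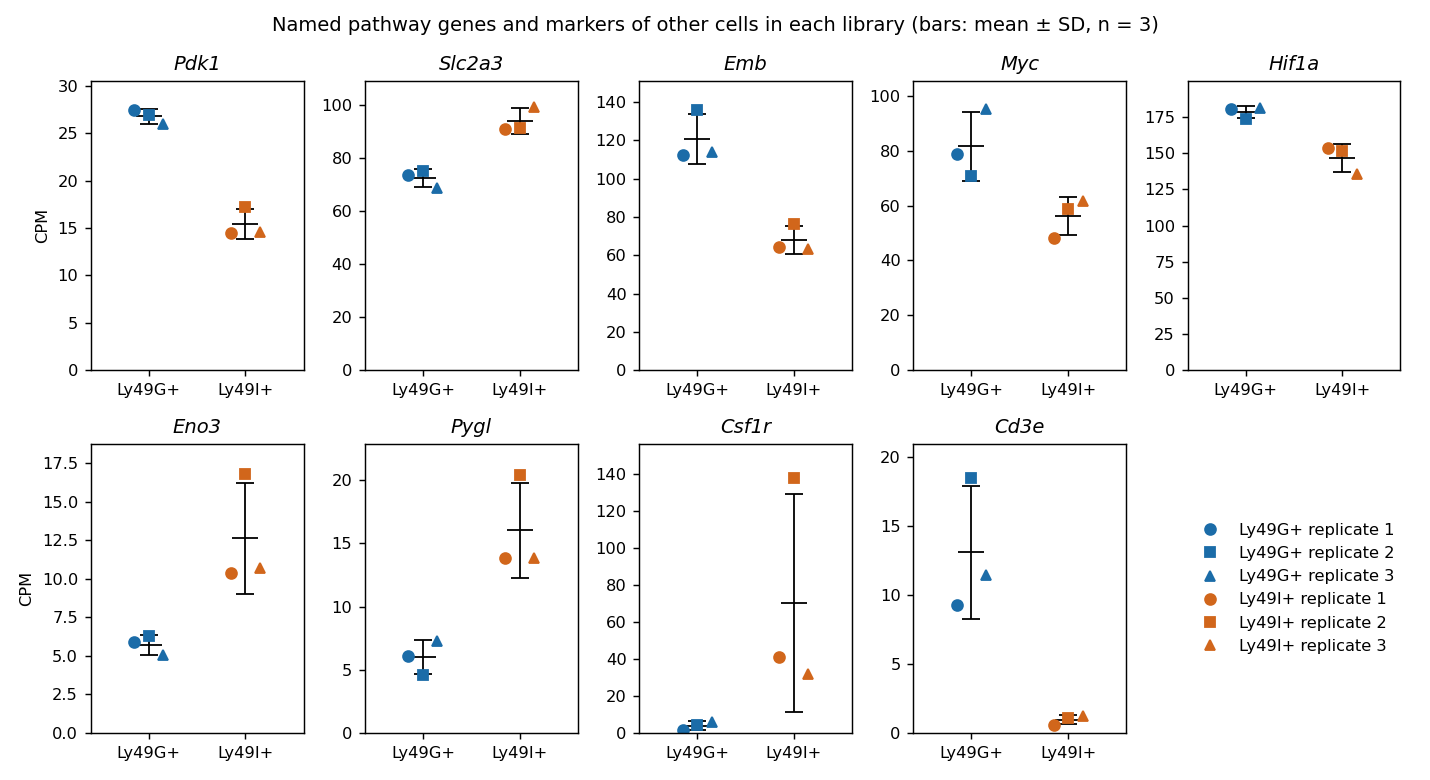
Levels in CPM (vertical axes from 0) of the called or discussed genes Pdk1, Slc2a3, Emb, Myc, Hif1a, Eno3 and Pygl beside the monocyte marker Csf1r and the T cell marker Cd3e, with points for libraries and bars for the mean ± SD (n = 3). Eno3 and Pygl peak with Csf1r in Ly49I+ replicate 2 (Csf1r 138 CPM). Cd3e and Emb peak in Ly49G+ replicate 2 (18.5 and 136 CPM), Pdk1 peaks in Ly49G+ replicate 1 (27.5 CPM) and Myc in Ly49G+ replicate 3 (95.2 CPM).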

How the data were processed

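RNA of 6 libraries was sequenced as pairs of 100-base reads from stranded libraries of 0.4 µg total RNA, per the labels' protocols. The authors used CASAVA 1.8.2, STAR 2.3.0, limma and build mm10, per the submitters' processing notes; no source used here names the counter, annotation or low-value filter. The authors deposited log2 CPM, with 0.5 added to each count and 1 to the library total. Inverting it returned whole reads in 100% of cells of the table (tolerance 0.001 read). Every gene listed reached 10 CPM in at least 2 libraries, and genes outside the table held 1.43% to 1.71% of reads.

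Ly49G+ minus Ly49I+ was tested on those log2 values with limma (version 3.58.1, R version 4.3.3; intensity trend, two-sided, Benjamini-Hochberg over 8520 genes, threshold 0.05), after the steps were tested on simulated data. Adjusted p-values are limma's, except those of the shares, which adjust the exact permutation p-values. Lengths are unions of GENCODE M21 basic exons, and shared windows were exact matches from blastn 2.17.0. Names and coordinates are RefSeq's for GRCm38.p6, which mm10 represents. Deviations of same-numbered libraries from their group means correlated over genes at 0.371, 0.114 and 0.156, each above 0.1, the level taken here to treat the numbers as pairs. The labels give no reason for pairing, and some differently numbered libraries also passed this level. Ly49G+ replicate 3 with Ly49I+ replicate 2 correlated at 0.359 and Ly49G+ replicate 2 with Ly49I+ replicate 1 at 0.115, so the level does not tell pairs apart. The main fit used no block, and calls made with the block alone rest on an uncertain pairing. Blocked values stand beside the named genes whose call they change. Genes and lists were chosen with earlier results of these data known. Named genes are the whole set and, per surrounding list, those called, or the 2 with the largest difference where fewer than 2 were called; for each called gene of the set, its 3 most similar genes; and the 2 most abundant of the main marker lists. Alternatives were the replicate block, no trend, a robust prior, median centring, quantile normalization, voom weights, a pseudocount of 2 reads, a minimum mean log2 of 4, each library left out, and shares not divided by length. The last was added after seeing the data for the Pdk1 and Emb shares. Planned hexokinase and lactate dehydrogenase shares were not computed, since Hk2 and Ldhb are not analysed here.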

Additional observations from a re-analysis of the deposited data

How the results depend on the processing

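Pdk1 kept its direction and its call in all 14 alternatives, with log2 differences from 0.76 to 0.88 when single libraries were left out. Slc2a3 kept its direction in all 14 and its call in 8; its log2 difference was -0.37 without the intensity trend (adjusted p = 0.0564) and ran from -0.40 to -0.33 with single libraries left out. Pkm passed with the replicate block (-0.24, adjusted p = 0.0299) and without Ly49I+ replicate 1, and ran from -0.34 to -0.15; the block changed no other call among the 9 genes. Leaving out single libraries moved Aldoa from -0.167 to 0.0590, Gapdh from -0.167 to 0.0505, Slc2a1 from -0.34 to -0.06, Hk1 from -0.29 to -0.04, Pfkp from 0.08 to 0.14 and Ldha from 0.03 to 0.17, none of them past the threshold. Gapdh turned without Ly49G+ replicate 1 (0.0225) and without Ly49I+ replicates 2 (0.0393) and 3 (0.0505), and Aldoa without Ly49I+ replicate 3 (0.0590). Tigar turned without Ly49G+ replicate 1 (range -0.0158 to 0.107), and Pfkfb2 without Ly49G+ replicate 1 (-0.00979) and Ly49I+ replicate 3 (range -0.0283 to 0.108). The cause was not tested.

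Of the 9 genes of the set 1 was called without the intensity trend, with 0 higher in Ly49I+, and 2 were higher in Ly49I+ with the replicate block. With single libraries left out 1 to 3 were called, 1 higher in Ly49G+ each time and 0 to 2 higher in Ly49I+. Of the 92 surrounding genes 11 were called with the block (6 higher in Ly49G+, 5 in Ly49I+), 3 without the trend (1 higher in Ly49G+), 3 with voom weights (1 higher in Ly49G+), and 1 at a minimum mean log2 of 4 (1 higher in Ly49G+, 0 in Ly49I+), where Eno3 and Pygl were not tested and H6pd (adjusted p = 0.0528) and Myc (0.0506) lost their calls. With single libraries left out it was 2 to 9, with 1 to 4 higher in Ly49G+ and 1 to 5 in Ly49I+. Over all genes 993 were called with the block (485 and 508), 96 were higher in Ly49I+ at a minimum mean of 4, and leaving out single libraries gave 94 to 644 (45 to 297 and 49 to 347).

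The differences in share, Ly49G+ minus Ly49I+ in percentage points, ran with single libraries left out from -4.53 to 0.0922 for Slc2a3, 1.58 to 3.17 for Pfkp, 7.18 to 8.12 for Pdk1 and 9.63 to 13.3 for Emb. The Slc2a3 share turned without Ly49G+ replicate 3 (0.0922), and the Pdk1 difference was 12.3 without division by length. The replicate block was not applied to shares. Among the 9 genes of the set Pdk1 had the fewest reads, with a counting error of 4.47% at its lowest count; Pygl (from 166 reads), Eno3 (187) and Cd3e (20) were counted from fewer.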
